A study of Mus musculus with 3 samples.

Results

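The genes described are 8 interferon-stimulated genes, Ifi205, Ifit1, Ifit3, Isg15, Irf1, Irf7, Bst2 and Ifitm3, whose rows were picked by symbol from the 27998 genes of a single-cell RNA sequencing study of mouse dorsal skin; all 8 of 8 symbols were found. The study holds 3 libraries of C57BL/6 mice with no genetic change or treatment given in the labels, 1 each of neonatal, 3-week and 2-month skin. Biopsies were minced, digested with collagenase D and DNase and run through a droplet kit that reads the 3' ends of transcripts. The number of animals behind each library is not given in the sources used here. With 1 library per age no difference between ages carries a test. Where 3 values stand together they are the neonatal, 3-week and 2-month libraries in that order. Levels are the unique molecular identifier (UMI) counts of a gene summed over the cells of a class in a library, as counts per 1e6 (CPM) of the UMIs of those cells.

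Interferons are secreted proteins that alert cells to viruses and other danger. Type I interferons such as interferon beta signal through the receptor chains Ifnar1 and Ifnar2 and act on genes with a promoter element called ISRE. Interferon gamma, made mainly by lymphocytes, signals through Ifngr1 and Ifngr2 and acts on genes with the GAS element. Among the 8 genes, Irf1 and Irf7 encode transcription factors of the response, Irf1 also being inducible by other inflammatory signals. Ifit1 and Ifit3 encode partner proteins that recognise foreign RNA. Isg15 encodes a ubiquitin-like modifier. Bst2, also called tetherin, holds budding viruses at the cell surface, and Ifitm3 hinders their entry from endosomes. Ifi205 belongs to the PYHIN family, some of whose proteins bind DNA.

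The promoters of 5 of these genes are shown, all with a match to the core of ISRE. On average Ifit1, Ifit3 and Isg15 were highest in macrophage-like cells and Ifi205 in fibroblast-like cells. Bst2 was high in both endothelial-like and macrophage-like cells. Whether the element has a part in these levels was not tested. The stretches are the 160 bases before the RefSeq start (build GRCm38.p6), 5′ to 3′ on the gene's own strand, with matches to the ISRE core (TTTC, any 2 bases, TTTC), to its reverse complement (GAAA, any 2 bases, GAAA) and to GAS (TTCNNNGAA) in capitals. Ifit1 lies at chr19:34640871-34650009 on the plus strand, and its stretch is chr19:34640729-34640888. Ifit3 lies at chr19:34583531-34588731 on the plus strand, with the stretch chr19:34583369-34583528. Isg15 lies at chr4:156199424-156200818 on the minus strand, with the stretch chr4:156200819-156200978. Bst2 lies at chr8:71534255-71537456 on the minus strand, with the stretch chr8:71537473-71537632, in which the GAS match overlaps the first of 2 ISRE matches. Ifi205 lies at chr1:174011998-174031810 on the minus strand, with the stretch chr1:174031756-174031915.
Ifit1: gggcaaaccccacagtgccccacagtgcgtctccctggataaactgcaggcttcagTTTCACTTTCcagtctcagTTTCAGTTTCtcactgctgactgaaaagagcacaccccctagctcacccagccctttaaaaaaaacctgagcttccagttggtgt
Ifit3: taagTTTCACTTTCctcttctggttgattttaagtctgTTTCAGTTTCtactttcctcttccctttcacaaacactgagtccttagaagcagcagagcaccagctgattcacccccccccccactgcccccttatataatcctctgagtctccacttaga
Isg15: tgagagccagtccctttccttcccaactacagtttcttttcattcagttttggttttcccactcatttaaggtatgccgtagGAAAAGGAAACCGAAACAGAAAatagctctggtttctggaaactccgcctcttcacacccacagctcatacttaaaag
Bst2: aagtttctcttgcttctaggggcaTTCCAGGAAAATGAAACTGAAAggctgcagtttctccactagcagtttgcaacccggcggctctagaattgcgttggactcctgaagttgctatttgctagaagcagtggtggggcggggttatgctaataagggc
Ifi205: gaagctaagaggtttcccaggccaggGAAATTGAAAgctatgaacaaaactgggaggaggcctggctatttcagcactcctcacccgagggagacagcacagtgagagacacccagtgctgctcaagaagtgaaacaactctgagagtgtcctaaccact

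Over the full windows of 300 bases, 250 before and 50 after the start, 6 of the 8 genes held the ISRE core, against 1131 of 32851 promoter windows of the mouse annotation (3.44%). Isg15 had 3 overlapping copies in a row, and Ifi205, Ifit1, Ifit3, Bst2 and Ifitm3 had 2 each. Both copies of Ifitm3 (gene at chr7:141009586-141010770, minus strand) lay after its start. A GAS match, found in 8.3% of all windows, was present in Irf1, Bst2 and Ifitm3. Irf1 lies at chr11:53770014-53778374 on the plus strand, and its match began 90 bases before the start in the stretch chr11:53769854-53770013, shown as the one member here with GAS and no ISRE core.
Irf1: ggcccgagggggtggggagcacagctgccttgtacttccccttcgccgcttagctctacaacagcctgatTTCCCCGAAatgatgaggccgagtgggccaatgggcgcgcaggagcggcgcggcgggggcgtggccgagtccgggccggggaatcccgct
Irf7, at chr7:141262706-141266481 on the minus strand, held neither set of letters in this window. Irf1 and Irf7 each overlap a gene on the other strand, Gm17334 and Phrf1, and the sources used here do not say whether counting used the strand, so reads of each pair may be mixed. Ifi205 and Ifit3 have close relatives, the other PYHIN genes and Ifit3b, and reads could be split among them.

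Barcodes had to show at least 300 genes and at least 500 UMIs, with no more than 10% of the UMIs mitochondrial, which kept 7911, 8900 and 9332 barcodes of 8452, 10226 and 10190. They had median depths of 8685, 11142.5 and 8529.5 UMIs. Between 27 and 35 barcodes were shared by each pair of libraries. Cells were put in a class by marker genes that exclude the 8 members, and a class is therefore a range of marker content and called "-like". Fibroblast-like cells numbered 5982, 5531 and 4711, of which 531, 1005 and 747 held just the required number of markers. Macrophage-like cells numbered 79, 135 and 149, and keratinocyte-like cells 293, 1414 and 1733. A further 902, 438 and 700 cells met no gate, and 174, 446 and 568 met 2 or more and were left out. Macrophage-like cells were led by Cd209f, Ccl12, Retnla, Folr2, C1qc and C1qb, but a median of 2 to 3 of 7 fibroblast markers was also detected in them, and at 2 months 4 of 10 dendritic markers. Fibroblast markers at 2 to 4 of 7 were detected in all other classes with 20 or more cells in 3 libraries, and the part of fibroblast transcripts from other cells in the levels given here was not tested.

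Macrophage-like cells were the class in which the RNA sensors and Isg15 stood highest. Ifit1 reached 566, 1278 and 837 CPM in macrophage-like cells, against 1.68, 9.32 and 11.5 CPM in fibroblast-like cells. Isg15 reached 1318, 882 and 662 CPM in macrophage-like cells, against 5.82, 16.9 and 31.2 CPM in fibroblast-like cells. Ifit3 was at 74.8, 50.3 and 86.2 CPM in macrophage-like cells and at 2.90, 8.15 and 9.56 CPM in fibroblast-like cells. For these 3 genes the lowest macrophage-like library lay above the highest fibroblast-like one. The 3 libraries were the replicates of a class in edgeR's quasi-likelihood test with Benjamini-Hochberg adjustment, run on 28 profiles of 20 or more cells and 12045 genes with library as a block term. In it, 5 of the 8 genes were higher in macrophage-like than in fibroblast-like cells and 2 were lower, where 16.7% and 21.6% of all genes tested were. The log2 difference was 6.89 ± 0.62 (SE) for Ifit1 (edgeR adjusted p = 4.19e-08), 5.83 ± 0.54 for Isg15 (edgeR adjusted p = 1.40e-08) and 3.18 ± 0.63 for Ifit3 (edgeR adjusted p = 0.000463), beside a median of -0.21 over all genes. The 3 profiles behind each class differ in age. Shifts between libraries that all classes share were taken up by the block term. Those p-values rest on the spread that remained, estimated over all 10 classes of the fit together.

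The antiviral membrane protein genes followed another order. Bst2 was at 262, 209 and 417 CPM in macrophage-like cells, against 21.5, 61.9 and 101 CPM in fibroblast-like cells, a log2 difference of 2.12 ± 0.60 (SE; edgeR adjusted p = 0.00768) that lost its call without the 3-week library (edgeR adjusted p = 0.0917). It was also high in endothelial-like cells, at 387, 351 and 318 CPM (2.16 ± 0.61, edgeR adjusted p = 0.00974). Bst2 averaged 352 ± 34.5 CPM in endothelial-like and 296 ± 108 CPM in macrophage-like cells (SD, n = 3 libraries each). The ranges over libraries overlapped, and this pair was not tested. Ifitm3 was highest in endothelial-like cells, at 2259.7, 3675 and 4535 CPM, against 960.2, 1241 and 1238 CPM in fibroblast-like cells, yet this difference of 1.13 ± 0.50 did not pass (edgeR adjusted p = 0.0979). In macrophage-like cells Ifitm3 was at 519.8, 1244 and 1703 CPM, and the groups overlapped (log2 difference -0.21). After endothelial-like cells, the next in order for Ifitm3 were mural-like, macrophage-like and fibroblast-like cells at 1618, 1156 and 1147 CPM on average. Their SDs were 607, 597 and 161 over 3 libraries. The lowest mural-like library, at 1258 CPM, lay above the highest fibroblast-like one, and edgeR did not call that difference. Mural-like and macrophage-like libraries overlapped, and their difference was not tested.

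The transcription factor genes differed from each other. Irf7 was at 52.2, 12.2 and 86.2 CPM in macrophage-like cells, against 8.65, 9.52 and 26.1 CPM in fibroblast-like cells, a log2 difference of 1.45 ± 0.48 (SE; edgeR adjusted p = 0.0209). The 2 groups overlapped, and the call was lost without the neonatal or the 3-week library (edgeR adjusted p up to 0.0854 over all alternatives). Irf1 was lower in macrophage-like cells, at 210, 182 and 163 CPM, against 294, 312 and 465 CPM in fibroblast-like cells (-1.01 ± 0.36, edgeR adjusted p = 0.0307). That call was lost without the library term and without the 3-week or the 2-month library, with adjusted p up to 0.321 in edgeR. Irf1 was of a like height in other stromal classes, at 427, 282 and 471 CPM in mural-like and 314, 306 and 285 CPM in endothelial-like cells. It was lower in lymphocyte-like, mast-like and dendritic or Langerhans-like cells in the same test, with 29.5 and 46.8 CPM in dendritic or Langerhans-like cells of the 3-week and 2-month libraries.

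Ifi205 was the one gene of the 8 whose highest class was fibroblast-like. It had 12.8, 6.79 and 9.23 CPM in macrophage-like cells, against 2.97, 160.2 and 258 CPM in fibroblast-like cells, so the neonatal library went the other way from the later 2. The log2 difference was -2.84 ± 0.92 (SE; edgeR adjusted p = 0.0179), and it was not called without the 3-week or the 2-month library, with edgeR adjusted p up to 0.627. The gene was at 0 or a single-digit level in most other classes. It had no UMI in the 88 and 62 mast-like cells of the neonatal and 3-week libraries, where 3 counts would be 5.005 and 36.7 CPM. In all, fibroblast-like cells, 75.6%, 62.1% and 50.5% of kept cells, gave 85.6%, 95.7% and 91.1% of the Ifi205 UMIs. Macrophage-like cells, 0.999%, 1.52% and 1.60% of cells, gave 70.4%, 54.4% and 36.3% of the Ifit1 UMIs, and 51.6%, 22.7% and 11.7% of those of Isg15. The far more numerous fibroblast-like cells gave 12.4%, 36.9% and 39.5% of the Ifit1 UMIs and 13.4%, 40.6% and 43.7% of those of Isg15. They were thus the larger source of Ifit1 at 2 months and of Isg15 at 3 weeks and 2 months.

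**Figure D1:**
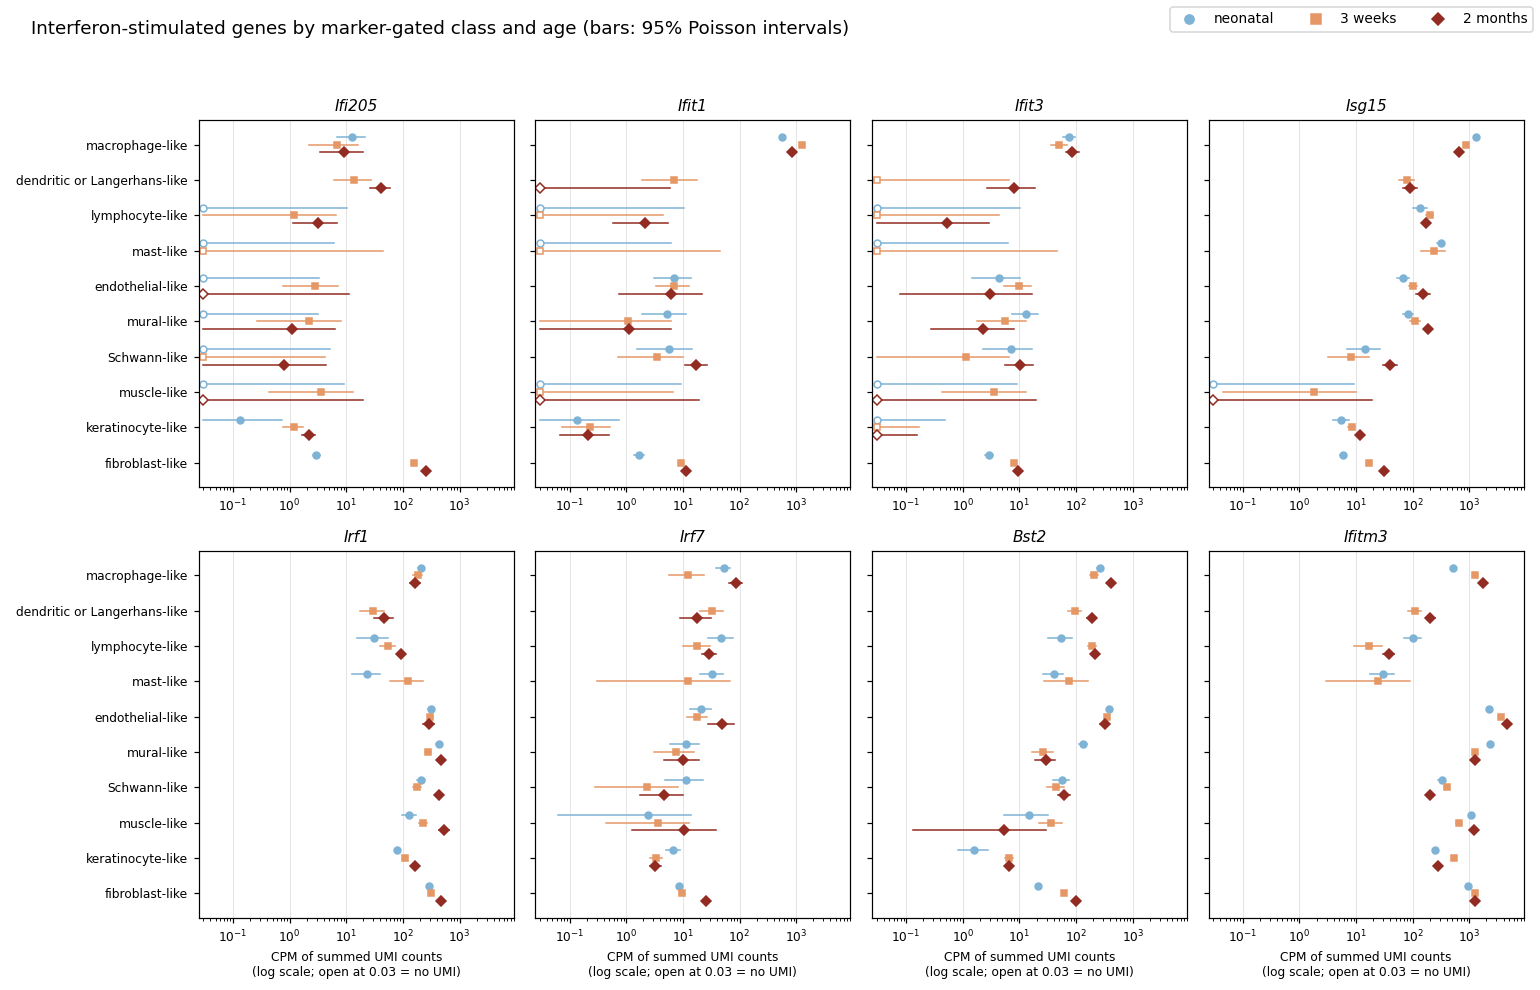
Level of each of the 8 genes (CPM, log axis) in marker-gated classes with 20 or more cells, 1 point per library, with neonatal, 3-week and 2-month libraries marked by colour. Ifit1 stands at 566 to 1278 CPM in macrophage-like cells and at or under 17.3 CPM in the other classes, Ifi205 is above 100 CPM only in fibroblast-like cells of the later 2 ages, and open markers at the foot of an axis are profiles with no UMI.

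Keratinocyte-like cells were low in these genes. All 8 were lower there than in fibroblast-like cells by edgeR's quasi-likelihood test with Benjamini-Hochberg adjustment, where 26.1% of all genes tested were lower and 18.4% higher. Ifit3 had no UMI in any of the 3 keratinocyte-like profiles, whose limits of 3 counts are 0.399, 0.136 and 0.126 CPM (edgeR adjusted p = 1.23e-06). Ifit1 was at 0.133, 0.226 and 0.210 CPM and Bst2 at 1.60, 6.60 and 6.51 CPM. Ifitm3, at 245, 544 and 273 CPM, had a log2 difference of -1.96 ± 0.51 (SE; edgeR adjusted p = 0.00315), a call lost without the 2-month library (edgeR adjusted p = 0.0903). The smallest difference was that of Isg15, with 5.46, 8.41 and 11.5 CPM in keratinocyte-like cells. Its log2 value was -1.29 (edgeR adjusted p = 0.0228) and lost its call without the 3-week or 2-month library or without the 6% of cells with the most UMIs, at edgeR adjusted p up to 0.259.

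Isg15 was the member most often higher outside macrophage-like cells. It was at 314 and 233 CPM in mast-like cells of the neonatal and 3-week libraries (log2 difference 4.01 ± 0.55, edgeR adjusted p = 9.96e-06), the 3-week ones being shallow at a median of 742 UMIs. In lymphocyte-like cells it was at 137, 198 and 168 CPM (3.04, edgeR adjusted p = 1.78e-05), and in mural-like cells at 82.8, 111 and 184 CPM (2.62, edgeR adjusted p = 0.000194). Endothelial-like cells had 67.1, 101 and 151 CPM (2.15, edgeR adjusted p = 0.00112) and dendritic or Langerhans-like cells 78.1 and 90.4 CPM in the later 2 libraries (2.07, edgeR adjusted p = 0.00300), where the call was lost without the 3-week library (edgeR adjusted p = 0.154). In all 5 classes the lowest library lay above the highest of the fibroblast-like ones, 31.2 CPM. Muscle-like cells stood at the other end, with 0, 1.79 and 0 CPM. Isg15 was the only member called higher in mast-like, lymphocyte-like, mural-like and dendritic or Langerhans-like cells, where 9.83%, 18.5%, 11.1% and 15.0% of all genes were. In endothelial-like cells, where 11.8% of all genes were higher, Bst2 was called with it, and both calls were lost without the 3-week library (edgeR adjusted p up to 0.0764 for Isg15 and 0.159 for Bst2).

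The members called lower in those classes were mostly Ifi205, Ifitm3 and Irf1. Ifitm3 was at 101, 16.7 and 37.5 CPM in lymphocyte-like cells (-4.93, edgeR adjusted p = 8.25e-07) and at 30.03 and 24.5 CPM in mast-like cells (-5.64, edgeR adjusted p = 1.92e-05). Ifi205 was called lower in all 9 classes set against fibroblast-like cells. Its calls in keratinocyte-like, lymphocyte-like and Schwann-like cells held on leaving out each library in turn, and those in the other 6 classes were lost without the 3-week library. Lymphocyte-like cells had 5 members lower (26.7% of all genes), mast-like and dendritic or Langerhans-like cells 3 each (15.4% and 20.6%), Schwann-like and muscle-like cells 3 each (18.8% and 16.4%, with no member higher where 11.5% and 6.73% were), and endothelial-like and mural-like cells 1 each (15.6% and 14.5%).

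The other genes of the response, from lists of known members, were also high in macrophage-like cells. Of 33 other type I response genes tested, 22 were higher in macrophage-like cells and none lower (edgeR adjusted p under 0.05), with a median log2 difference of 3.23, against -0.21 over all genes. Rsad2, which makes an antiviral nucleotide, was at 877, 1395 and 1140.1 CPM in macrophage-like cells. Of 16 interferon gamma response genes tested, 13 were higher and none lower, among them the chemokine gene Cxcl10 at 4096, 1572 and 1139 CPM. Of the 6 PYHIN genes other than Ifi205, 5 were higher in macrophage-like cells and none lower, the opposite of Ifi205. In keratinocyte-like cells none of the 33 type I genes was higher and 25 were lower, with a median of -2.96. In endothelial-like cells 10 of the 33 were higher and none lower, beside 11.8% and 15.6% of all genes. In lymphocyte-like cells 4 were higher and 8 lower, beside 18.5% and 26.7% of all genes, and in mast-like cells 1 was higher and 7 were lower, beside 9.83% and 15.4%.

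Among the ligands, the interferon beta gene Ifnb1 was highest in macrophage-like cells. It had 226, 156 and 100 UMIs in 26, 38 and 35 of them, or 222 CPM (95% Poisson interval 194 to 253), 212 CPM (180 to 248) and 154 CPM (125 to 187). Fibroblast-like cells had 12, 5 and 50 UMIs, or 0.200, 0.0729 and 0.969 CPM, and 36 of the 50 at 2 months came from 1 of 15 cells with a UMI. Keratinocyte-like, lymphocyte-like, mast-like, endothelial-like and mural-like profiles had 0 or 1 Ifnb1 UMI each. The interferon gamma gene Ifng was a lymphocyte-like transcript, at 33.5, 142 and 296 CPM in 6, 39 and 165 cells, and had 0, 2 and 7 UMIs in fibroblast-like cells. The receptor genes were present in fibroblast-like cells, with Ifnar2 at 47.7, 51.3 and 57.9 CPM and Ifngr1 at 33.4, 92.6 and 136 CPM.

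Within macrophage-like cells, Ifit1 and Isg15 were higher where an Ifnb1 UMI was found. Ifit1 was at 1310.5, 2812 and 1803 CPM in cells with an Ifnb1 UMI, against 159.8, 652 and 549 CPM in those without. Isg15 was at 2125, 1673 and 1529 CPM in cells with an Ifnb1 UMI, against 878, 559 and 403 CPM in those without. The order was the same in all 3 libraries for both genes and for Ifit3, at 139, 108 and 93.9 CPM against 39.6, 26.8 and 83.9 CPM. Irf7 did not follow, at 53.0, 4.69 and 33.5 CPM in cells with an Ifnb1 UMI and 51.7, 15.3 and 101.8 CPM in those without, and Bst2 and Ifitm3 were higher at 2 months in cells without one. Median depths were 13744.5, 5284.5 and 4335 UMIs in cells with an Ifnb1 UMI and 13481, 4628 and 3662.5 in those without. These are splits of cells within a library by a measured gene, with no test. Over 29 class-by-library profiles, Ifnb1 was the gene whose log2(CPM + 1) followed that of Ifit1 most closely (Pearson r = 0.908). Next were Ms4a7 (0.886) and Ms4a14 (0.885). Ifit1 and Ifnb1 were both high in the 3 macrophage-like profiles and low elsewhere, and r describes this contrast between classes that share libraries. Among the macrophage-like libraries Ifnb1 was at 222, 212 and 154 CPM and Ifit1 at 566, 1278 and 837 CPM, in a different order.

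**Figure D2:**
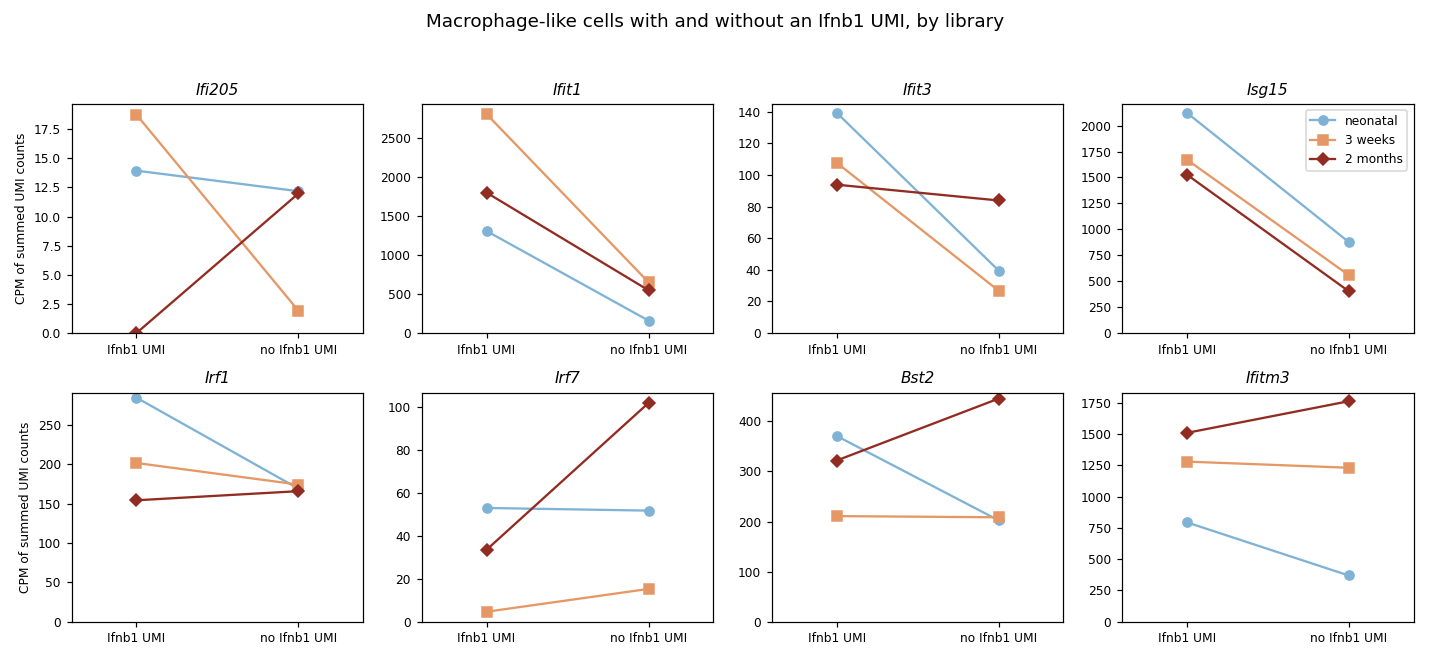
Level of each gene (CPM, linear axis) in macrophage-like cells with an Ifnb1 UMI, left, and without one, right, with 1 line per library. Ifit1 and Isg15 are higher at the left in all 3 libraries, and Irf7 is higher at the right in the later 2.

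Fibroblast-like cells were divided by subtype markers that again exclude the 8 genes. Cells with markers of Pi16 and Dpp4 positive interstitial progenitors numbered 404, 1669 and 1556, and those with papillary markers 742, 635 and 616, while 4044, 2328 and 2123 cells met no subtype gate. Ifi205 was at 23.3, 307 and 564 CPM in interstitial progenitor-like cells, against 1.20, 109 and 89.8 CPM in cells of no subtype. Bst2 was at 33.2, 94.5 and 167 CPM in interstitial progenitor-like cells, against 22.5, 43.6 and 65.3 CPM in cells of no subtype. Both genes were higher in the progenitor-like cells within each of the 3 libraries. They were the 2 members that passed edgeR's quasi-likelihood test with Benjamini-Hochberg adjustment (13 profiles, 13129 genes), where 5.26% of all genes were higher and 5.18% lower. The log2 difference was 2.85 ± 0.47 (SE) for Ifi205 (edgeR adjusted p = 0.00541) and 1.14 ± 0.19 for Bst2 (edgeR adjusted p = 0.00521). Both calls were lost without the 3-week library, without the 2-month library and without the library term, with edgeR adjusted p up to 0.995 and 0.879.

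Isg15, Irf7 and Ifit1 had values of the same sign that did not pass. The log2 difference between interstitial progenitor-like cells and cells of no subtype was 0.96 for Isg15 (edgeR adjusted p = 0.0740), 1.12 for Irf7 (edgeR adjusted p = 0.0852) and 1.24 for Ifit1 (edgeR adjusted p = 0.102). Ifitm3, Ifit3 and Irf1 had log2 differences of 0.29, 0.25 and 0.09. Of 28 other type I response genes tested in this comparison, 8 were higher and 1 lower, with a median of 0.60, against 0.00 over all genes. Of the 5 PYHIN genes tested, 2 were higher and none lower.

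In papillary-like cells Ifi205 was at 0, 22.9 and 15.9 CPM, against 1.20, 109 and 89.8 CPM in cells of no subtype, lower in each library. None of the 8 genes passed in that comparison with edgeR or with DESeq2, and 3 of them, Ifi205, Isg15 and Bst2, had an unadjusted p under 0.05 in edgeR. There edgeR called 0.0229% of all genes higher and 0.122% lower, and 1214 genes had an unadjusted p under 0.05. Dermal sheath-like cells (98 and 39 cells in the neonatal and 3-week libraries) had Irf1 at 85.4 and 102 CPM, against 312 and 361 CPM in cells of no subtype of the same libraries (-1.98 ± 0.21 on the log2 scale, edgeR adjusted p = 0.000722). Bst2 was at 4.49 and 34.0 CPM, against 22.5 and 43.6 CPM (-1.25, edgeR adjusted p = 0.0390) and Ifi205 at 0 and 3.998 CPM, against 1.20 and 109 CPM (edgeR adjusted p = 0.0442), which makes 3 members lower and none higher, where 6.46% and 6.21% of all genes were. The summed level of 14 dissociation and immediate early genes was 10864 and 10481 CPM in the dermal sheath-like profiles and 23662 and 28559 CPM in those of no subtype, and its part in the Irf1 difference was not tested. In cycling cells Irf1, at 179 and 287 CPM in the same libraries, was the one member called lower (-0.74, edgeR adjusted p = 0.0272), where 6.86% of all genes were lower and 9.28% higher, and its call was lost on leaving out any 1 library, without the library term, and with 1 marker more or 1 fewer in each gate (edgeR adjusted p up to 0.232). All 3 calls in dermal sheath-like cells were lost without the 3-week library, which was the one alternative that ended the Irf1 call (edgeR adjusted p = 0.0639). The Bst2 and Ifi205 calls were also lost with 1 marker more, without the library term and without the neonatal library. That of Bst2 was lost with 1 marker fewer and without the 6% of cells with the most UMIs too, and that of Ifi205 without the 2-month library (edgeR adjusted p up to 0.443 for Bst2 and 0.763 for Ifi205).

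**Figure D3:**
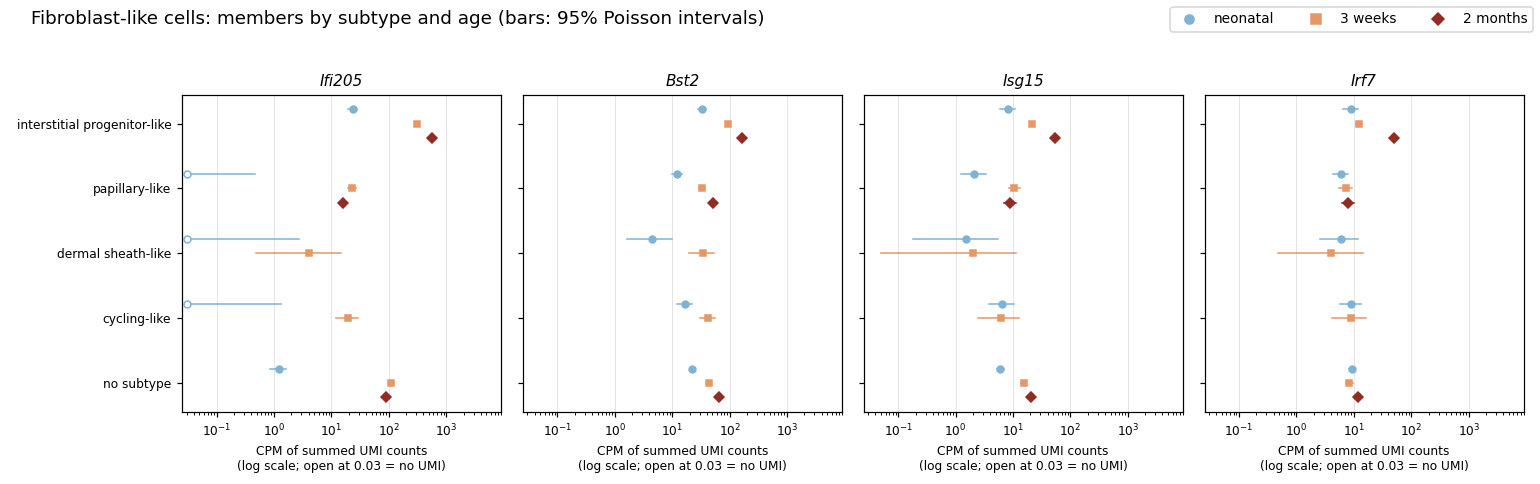
Level of Ifi205, Bst2, Isg15 and Irf7 (CPM, log axis) in fibroblast subtypes, 1 point per library with 20 or more cells. The groups are interstitial progenitor-like, papillary-like, dermal sheath-like and cycling cells and fibroblast-like cells of no subtype. Ifi205 and Bst2 are highest in interstitial progenitor-like cells at each age, and open markers at the foot of an axis are profiles with no UMI.

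Between ages, the members in fibroblast-like cells were higher in the older library or about level. A gene was counted where it had 10 CPM or more in 1 of the 2 libraries compared and differed 2-fold or more. Between 3 weeks and neonatal, 5 members were measured, of which Ifi205, Isg15 and Bst2 were higher and none lower, where 8.18% of all genes were higher and 11.4% lower. Ifi205 stood out in size, at 160.2 CPM (157 to 163) at 3 weeks, against 2.97 CPM (2.55 to 3.44) in the neonatal library, a log2 ratio of 5.75 (5.54 to 5.98). Isg15 had a log2 ratio of 1.54 (1.37 to 1.72) and Bst2 of 1.53 (1.44 to 1.62). Ifitm3 and Irf1 had 0.37 and 0.09, beside a median of -0.21 over all genes measured. All intervals are exact, at 95%, and cover counting error only. Ifit1, Ifit3 and Irf7 were under 10 CPM in both libraries.

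Between 2 months and 3 weeks, 7 members were measured and Irf7 was the one past 2-fold, at 26.1 CPM at 2 months, against 9.52 CPM at 3 weeks (log2 ratio 1.45, interval 1.32 to 1.59), where 3.27% of all genes were higher and 3.35% lower. Isg15, Bst2, Ifi205 and Irf1 had log2 ratios of 0.88, 0.70, 0.69 and 0.58, and Ifitm3 of 0.00, beside a median of -0.09 over all genes. The 2-month library had more of the dissociation and immediate early genes in fibroblast-like cells, a summed 21929, 24973 and 31127 CPM over the 3 ages, and its part in the Irf1 ratio was not tested. Of other type I response genes, 7 of 14 measured were higher and 2 lower between 3 weeks and neonatal, beside 8.18% and 11.4% of all genes. Between 2 months and 3 weeks 4 of 21 were higher and 1 lower, beside 3.27% and 3.35% of all genes. The 4 measured PYHIN genes Ifi204, Mnda, Ifi203 and Mndal were all higher at 3 weeks than in the neonatal library. Ifi204, for one, was at 7.14, 62.0 and 84.4 CPM.

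The ratios between 2 months and 3 weeks were not alike in all subtypes. In interstitial progenitor-like cells Irf7 was at 50.5 CPM at 2 months, against 12.1 CPM at 3 weeks (log2 ratio 2.06, interval 1.87 to 2.25), and Isg15 at 53.3 CPM at 2 months, against 21.5 CPM at 3 weeks (1.31, 1.15 to 1.46). These were 2 members past 2-fold of 8 measured, where 4.21% of all genes were higher and 3.91% lower. In cells of no subtype Irf7 was at 11.9 CPM at 2 months and 8.37 CPM at 3 weeks, and no member passed 2-fold between those ages. Ifi205 was higher at 2 months than at 3 weeks in interstitial progenitor-like cells, at 564 and 307 CPM, and lower in cells of no subtype, at 89.8 and 109 CPM. Between 3 weeks and neonatal, Ifi205, Isg15 and Bst2 were past 2-fold in the progenitor-like cells, with log2 ratios of 3.72, 1.41 and 1.51. There 6.06% of all genes were higher and 7.26% lower. In cells of no subtype Ifi205, Ifit1 and Isg15 were past 2-fold in that step (6.50, 2.71 and 1.34), and Bst2, at 0.96, was not. The median of all genes there was -0.16. Progenitor-like cells were 6.75%, 30.2% and 33.0% of fibroblast-like cells, and the part of this in the ratios of all fibroblast-like cells was not tested. No difference of these ratios between subtypes was tested.

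The 8 genes differed in how their UMIs were spread over fibroblast-like cells. Each cell was thinned to 1500 UMIs for shares, which left out 15, 14 and 103 shallower fibroblast-like cells. Ifitm3 and Irf1 were spread broadly. Ifitm3 had a UMI in 59.8%, 78.1% and 80.2% of thinned fibroblast-like cells, and Irf1 in 29.7%, 33.0% and 44.1%, and the 1% of cells with the most UMIs held 6.07%, 3.80% and 4.22% of the Ifitm3 UMIs and 8.04%, 6.61% and 6.84% of those of Irf1. Bst2 was sparser, with a UMI in 2.46%, 7.63% and 13.5% of cells. Keratinocyte-like cells, as a class with little of these genes and median depths of 17591, 11884 and 10646 UMIs, had Ifitm3 in 25.6%, 42.4% and 24.8% of thinned cells and Ifi205 in 0%, 0.354% and 0.406%. Over 293 thinned cells a count of 0 still allows a share of up to 1.25%.

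Ifi205 was held by few cells in the neonatal library and by many in the later 2. It had a UMI in 0.251%, 13.5% and 21.2% of thinned fibroblast-like cells, and the top 1% of cells held 86.5%, 14.8% and 12.2% of its UMIs. The upper limit in neonatal keratinocyte-like cells rests on 293 cells, too few to set the shares of the 2 classes apart. By level, Ifi205 had 178 UMIs (2.97 CPM) in neonatal fibroblast-like cells and 1 UMI (0.133 CPM) in keratinocyte-like cells. In interstitial progenitor-like cells the shares were 2.48%, 27.8% and 49.1%, against 0.0744%, 8.64% and 8.20% in cells of no subtype. Cells with 10 or more Ifi205 UMIs numbered 2, 397 and 487.

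Ifit1, Ifit3 and Isg15 had much of their UMIs in few cells at every age, while Irf7 was low and less concentrated. Ifit1 had a UMI in 0.168%, 0.816% and 1.48% of thinned fibroblast-like cells, and the top 1% of unthinned cells held 100%, 77.2% and 55.7% of its UMIs, with single cells of up to 10, 49 and 41 UMIs. Ifit3 had a UMI in 0.452%, 0.961% and 1.32% of thinned cells, with single cells of up to 7, 65 and 46 UMIs. The top 1% held 57.5%, 73.2% and 52.5% of the Ifit3 UMIs and 72.8%, 49.7% and 31.1% of those of Isg15. Irf7 was the least concentrated of these 4, at 39.7%, 30.2% and 25.9%. The Fano factor, the variance over the mean of the thinned counts, was 1.33, 3.50 and 1.60 for Ifit1 and 1.15, 1.06 and 1.21 for Irf7. The Irf7 values were near 1, as for low counts scattered over cells. The top 1% of cells hold a larger part when a gene has few UMIs. Fibroblast-like cells had 101, 639 and 591 Ifit1 UMIs and 519, 653 and 1346 of Irf7. The part expected at such counts was not computed. In macrophage-like cells Ifit1 had a UMI in 29.3%, 42.4% and 40.9% of thinned cells and Isg15 in 56.0%, 40.9% and 47.2%. Ifit3, in 13.3%, 6.82% and 10.2%, and Irf7, in 5.33%, 2.27% and 7.87%, were sparser there.

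**Figure D4:**
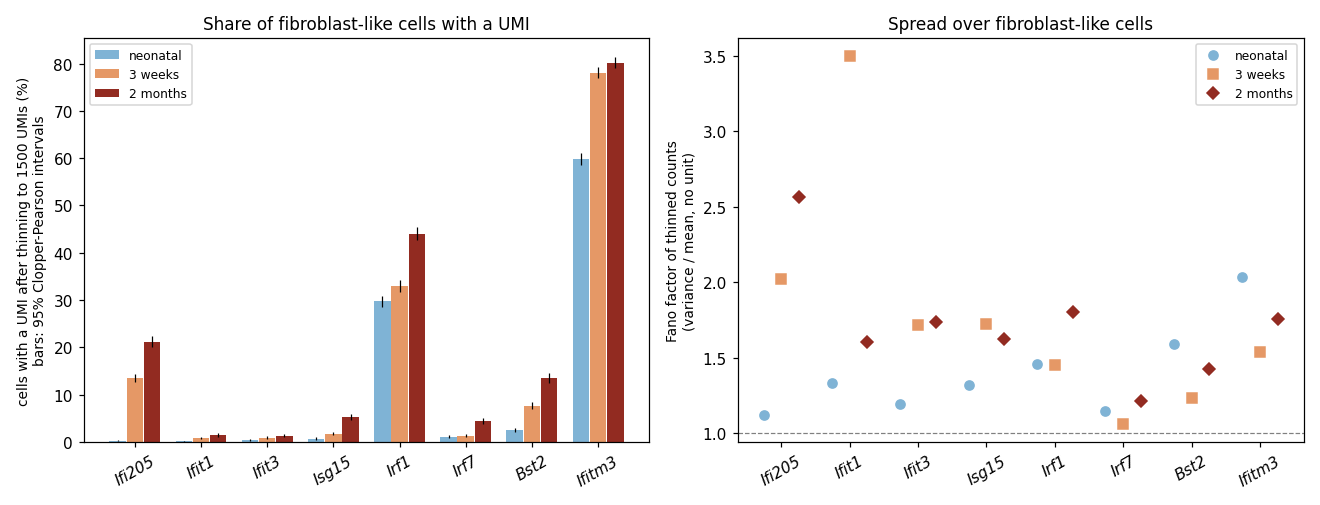
Spread of each gene over fibroblast-like cells, by library. The left panel gives the share of cells thinned to 1500 UMIs that held a UMI (percent, with exact 95% intervals). The right panel gives the Fano factor of the thinned counts (variance over mean, no unit). Ifitm3 and Irf1 have the highest shares of cells at each age, and the dashed line at the right marks a variance equal to the mean.

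Cells holding several of these genes at once were counted. Those in which at least 3 of the genes Ifit1, Ifit3, Isg15 and Irf7 were detected, of these 4, numbered 29, 72 and 121 of the fibroblast-like cells, or 0.485% (0.325 to 0.696), 1.30% (1.02 to 1.64) and 2.57% (2.14 to 3.06), with exact Clopper-Pearson intervals. Keratinocyte-like cells, of greater depth in the neonatal library, had none. Of the 121 such fibroblast-like cells at 2 months, 88 were interstitial progenitor-like, which is 5.66% (4.56 to 6.92) of that subtype, against 16 cells or 0.754% (0.431 to 1.22) of those of no subtype. At 3 weeks they were 35 interstitial progenitor-like cells (2.10%), against 19 cells of no subtype (0.816%), and in the neonatal library 5 (1.24%) against 18 (0.445%). Interstitial progenitor-like cells were the deeper ones, with median depths of 11970.5, 13723 and 10983.5 UMIs against 8176.5, 8548.5 and 6273. At the common depth of 1500 UMIs the shares of all fibroblast-like cells were 0.0335%, 0.0906% and 0.369%, from 2, 5 and 17 cells. At that depth interstitial progenitor-like cells had 0%, 0.120% and 0.585% (0, 2 and 9 cells). Those of no subtype had 0.0496%, 0.130% and 0.245% (2, 3 and 5 cells). The progenitor-like share was then the higher one only at 2 months, on few cells. Without thinning, 27, 20 and 33 macrophage-like cells met the same rule, or 34.2%, 14.8% and 22.1%.

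These cells were chosen by the 4 genes, so their shares of the UMIs of those genes describe the choice. They held 56.4%, 30.8% and 52.6% of the Ifit1 UMIs of fibroblast-like cells, 24.7%, 69.6% and 55.0% of those of Ifit3, 34.4%, 35.9% and 34.8% of those of Isg15 and 21.002%, 23.0% and 25.9% of those of Irf7. Of the members outside the rule they held 1.12%, 4.996% and 8.08% of those of Ifi205, 15.8%, 10.97% and 12.8% of those of Bst2 and 0.725%, 1.66% and 3.64% of those of Irf1. The other type I response genes, which did not enter the rule, were higher in them. Their summed level was 3924, 3715 and 4681 CPM in these cells, against 2097, 1799.7 and 1798 CPM in the rest of the fibroblast-like cells, and 29 of 35, 32 of 36 and 34 of 36 detected genes were higher. At 2 months Ifi27l2a was at 1158 CPM in these cells, against 185 CPM in the rest. They were somewhat deeper, with medians of 12910, 14080 and 10648 UMIs, against 9155, 12112 and 9938.5 in the rest. The 9 macrophage markers summed to 88.4, 17.3 and 16.1 CPM in them, against 4.25, 34.9 and 56.3 CPM in the rest, and 1, 1 and 2 of the cells held 2 or more macrophage markers. Schwann markers were higher in them in each library, at 36.4, 80.9 and 218 CPM, against 20.9, 51.2 and 96.1 CPM in the rest. At 2 months 43.8% of them held 2 or more Schwann markers, against 17.2% of the rest. Mural markers were lower in each library, and the other class lists had no order common to the 3 libraries. The source of these marker UMIs was not tested. All 7 fibroblast markers were detected in these cells, at a sum of 57853, 128360 and 61817 CPM, against 50102, 165953 and 170224 CPM in the rest.

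The genes whose class-by-library profile was most like that of each member, by Pearson r of log2(CPM + 1) over 29 profiles and among 13490 genes, differed from member to member. They were Smpd3 (0.829), Cxcl13 (0.821) and Fam69c (0.813) for Ifi205, and Ifit3b (0.834), Rtp4 (0.826) and Ctsb (0.780) for Ifit3. For Isg15 they were Samhd1 (0.872), Neu1 (0.863) and Rap1b (0.861), and for Irf7 Fndc3a (0.811), Samhd1 (0.792) and Akap13 (0.789). For Irf1 they were Samd4 and Zcchc14 (0.844 each) and Ptrf (0.838). Akap13 (0.817), Sdcbp and Lyn (0.796 each) were closest to Bst2, and Sash1 (0.870), Tcf4 (0.864) and Rras (0.857) to Ifitm3. The profiles share libraries and differ in depth, and these values are a description.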

How the data were processed

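The authors deposited, per sample, a matrix of raw UMI counts with its gene and barcode lists. Cell Ranger 3.0.2 and Seurat 2.0 are listed in the submitters' processing notes, with mm10 as genome build. How barcodes were chosen is not given in the sources used here. Barcodes were kept if at least 300 genes and at least 500 UMIs were detected and no more than 10% of UMIs were mitochondrial. A cell entered a class when it held at least 50%, rounded up, of the markers of that class and of no other class (macrophage before dendritic), and for fibroblast-like cells also 50 marker UMIs per 10000 UMIs. Near that level, 712, 51 and 57 gated cells lay within 2-fold above it, and 424, 159 and 84 cells with enough markers lay within 2-fold below. Cells passing 2 gates were left out as possible doublets and no doublet caller was run. The markers were chosen first and the gate rule after their distributions were seen. The members, lists and comparisons were chosen with earlier results of these data known.

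Counts summed per library and class (20 or more cells, 2 or more libraries) were tested with edgeR 4.0.16 (quasi-likelihood test, R 4.3.3), taking library as a block term, with TMM scaling, a low-count filter and Benjamini-Hochberg adjustment over all genes tested (threshold 0.05). On counts simulated at 1 fixed spread, it recovered 51 of 100 2-fold changes in macrophage-like and 52 of 100 in interstitial progenitor-like profiles. All 100 4-fold changes were recovered in each. False calls numbered 11 of 12045 and 7 of 13129 genes, to be set beside the recovered changes of the same run. All simulated profiles had 1 pooled mean, and only genes above a minimum expected count were changed. The spread was not taken from these data, so recovery for the members may be lower. DESeq2 1.42.0 was an alternative. Ages were compared by CPM with exact Poisson intervals, and shares after thinning to 1500 UMIs (seed 1) with exact Clopper-Pearson intervals at 95%. Intervals cover counting error only, since 1 library stands for each age. The genes named are the 8 members, at most the 4 highest genes of each list in a class, and for each member the 3 genes with the most similar profile (at least 10 CPM in 1 profile). Promoters were searched on both strands. The alternatives were other gate stringencies, a 5% mitochondrial limit, leaving out the 6% of cells with the most UMIs, other scalings, no library term and leaving out each library.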

Additional observations from a re-analysis of the deposited data

Results flagged for a closer look

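Some ratios between ages had opposite signs in 2 groups of cells. The difference between the 2 groups was not tested in any of them, since each age is 1 library. Values are log2 ratios of CPM. Between 2 months and 3 weeks, interstitial progenitor-like cells and fibroblast-like cells of no subtype moved apart for Ifi205 (0.88 against -0.28, a difference of 1.15), Ifit1 (0.79 against -0.74, a difference of 1.52) and Ifitm3 (0.06 against -0.15, a difference of 0.21). Ifi205 also had opposite signs in interstitial progenitor-like and papillary-like cells (0.88 against -0.53, a difference of 1.41). Between 3 weeks and neonatal, Irf1 was lower at 3 weeks in interstitial progenitor-like cells and higher in cells of no subtype (-0.18 against 0.21, a difference of -0.39) and in papillary-like cells (-0.18 against 0.30, a difference of -0.47).

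Macrophage-like and fibroblast-like cells had opposite signs for Isg15 in both steps, with -0.58 against 1.54 between 3 weeks and neonatal (a difference of -2.12) and -0.41 against 0.88 between 2 months and 3 weeks (a difference of -1.30). Bst2 did so between 3 weeks and neonatal (-0.32 against 1.53, a difference of -1.85), and Ifit1 between 2 months and 3 weeks (-0.61 against 0.30, a difference of -0.91). Macrophage-like cells were 79, 135 and 149 in number, with median depths of 13621, 4724 and 3763 UMIs. No group held 4 samples, so single samples were not screened for standing apart.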

How the results depend on the processing

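Among the fold changes of members recomputed under alternatives, 512 kept direction and call, 64 lost the call, 27 gained one and 8 changed sign. With the library term (the replicate block) dropped, the count of members called fell to 0 of 2 for interstitial progenitor-like, 0 of 1 for cycling and 1 of 3 for dermal sheath-like cells; labels give no replicate numbers, and the term pairs profiles of one library. With 1 marker more per gate the counts were 4 and, for dermal sheath-like cells, 1. For cycling cells the count was 2 at the 5% mitochondrial limit, with DESeq2 and with no low-count filter. Leaving out each library in turn gave counts of 1 to 5 for Schwann-like (3 with all), 1 to 4 for dendritic or Langerhans-like (4), 0 to 5 for endothelial-like (3), 5 to 8 for keratinocyte-like (8), 3 to 6 for macrophage-like (7), 1 to 4 for mural-like (2), 0 to 4 for muscle-like (3), 0 for cycling (1), 0 to 2 for dermal sheath-like (3) and 0 to 2 for interstitial progenitor-like cells (2). The uncalled Bst2 difference in mural-like cells (0.02) became -0.10 with 1 marker more, -0.0274 with 1 fewer and with no filter, -0.0557 at the 5% limit, -0.00129 without the deepest 6% of cells, -0.24 without the block and -1.86 to 1.06 on leaving out a library. Irf7 in dendritic or Langerhans-like cells ranged over -0.15 to 2.21. Between 2 months and 3 weeks in fibroblast-like cells, 1 member was past 2-fold, 2 by the mean of CPM per cell, and 0 in cells of no subtype, where the Ifi205 ratio was -0.28 and that of Ifit1 -0.74. The Ifitm3 ratio became 0.12 by the mean per cell, 0.0883 with TMM, 0.00309 with 1 marker fewer and 0.0372 without the deepest cells. The Irf1 ratio between 3 weeks and neonatal was -0.16 without mitochondrial, ribosomal-protein and haemoglobin genes. The median of all genes in that step was -0.21, 0.04 with TMM and -0.45 without those genes. Shares of cells with 3 of the 4 response genes without thinning were 0.485%, 1.30% and 2.57% of fibroblast-like and 34.2%, 14.8% and 22.1% of macrophage-like cells. At 3000 UMIs they were 0.256% of fibroblast-like cells at 3 weeks, and 8.85% and 16.0% of macrophage-like cells at 3 weeks and 2 months; another seed gave 1.33% of neonatal macrophage-like cells, against 8%. The cause of these shifts was not tested. Depth limits Ifit1, Ifit3 and Irf7 in classes under 100 cells, where a single UMI can be the whole value.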
